A study of Mus musculus with 7 samples.

Results

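The genes described here move and store iron, zinc and copper. They were the genes of the count table whose GRCm38 symbols start with Slc30a, Slc39a, Slc11a, Slc31a or Slc40a, together with Tfrc, Trf, Fth1, Ftl1, Hmox1, Mt1, Mt2, Cp, Heph, Ireb2 and Hfe. This rule found 41 of the 53465 genes, of which 15 belonged to the Slc39a family and 10 to the Slc30a family. Kidney RNA had been sequenced from 4 MRL/lpr mice that received AZD1152, an Aurora kinase B inhibitor, and from 3 MRL/lpr mice that received vehicle. MRL/lpr mice carry a defect of the death receptor gene Fas and develop a lupus-like disease with nephritis, so this background was common to both groups. The labels gave neither the dose and schedule of AZD1152 nor the age of the mice. Each library came from renal tissue, and its messenger RNA was selected with oligo(dT).

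Cells take up transferrin-bound iron through the transferrin receptor, store it in ferritin made of heavy and light chains, and release it through ferroportin. The ferroxidases ceruloplasmin and hephaestin oxidise the iron that leaves. Zinc enters the cytosol through the Slc39a (ZIP) carriers and leaves it, into vesicles or out of the cell, through the Slc30a (ZnT) carriers, while metallothioneins bind zinc and copper. In the kidney, tubule cells recover filtered metals and macrophages recycle iron.

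Library totals ran from 14692113 to 17036862 counts, and 15774 genes passed the filter on low counts and were tested. Values below are counts scaled to library size (CPM, with libraries made comparable by the trimmed mean of M-values, TMM). Differences are log2 fold changes of AZD1152 over vehicle with their standard errors (SE) from edgeR's quasi-likelihood test. A gene was called when its Benjamini-Hochberg adjusted p over all tested genes was under 0.05. Of all tested genes, 476 were higher and 759 lower in AZD1152 kidneys (232 and 1482 when scaled by total counts). Each of the 12 proximal tubule markers was above 0 in all 7 libraries. The sums of macrophage, T cell and proximal tubule markers did not overlap between the groups, while those of neutrophil, distal tubule and collecting duct markers did. The 14 macrophage markers summed to 545 to 794 CPM in AZD1152 kidneys and 1061 to 1449.9 CPM in vehicle kidneys, and the 12 T cell markers to 52.5 to 85.4 CPM in AZD1152 kidneys and 119 to 191 CPM in vehicle kidneys. The 12 proximal tubule markers summed to 16660 to 20659 CPM in AZD1152 kidneys and 10348 to 13794 CPM in vehicle kidneys. In bulk tissue, fewer cells of a type and less RNA per cell cannot be told apart.

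Of the 41 genes, 32 passed the filter and 9 did not. Those 9 were Mt2, Trf, Slc39a7, Slc39a2, Slc39a12, Slc30a3, Slc30a8, Slc30a10 and the pseudogene Slc39a1-ps, with 0 to 29 counts summed over the 7 libraries. For 3 of them the low count coincided with exons that another annotated gene also covers. Mt2, a metallothionein, had 0 counts in all libraries, and 73.5% of its exonic positions were shared with Gm45774 on the opposite strand. Trf, which encodes transferrin, had 9 counts in all, and 63.5% of its positions were shared with Gm20425 on the same strand. Slc39a7, a zinc carrier of the endoplasmic reticulum, had 25 counts, and 80.7% of its positions were shared with Gm20427 on the same strand. Neither Gm20425 nor Gm20427 had a count, and Gm45774 had 6. Across the table, 154 of 157 protein-coding genes (98.1%) whose exonic positions were all shared had 0 counts, against 3888 of 15447 (25.2%) with no shared position. Of the 37 genes wholly shared with the opposite strand, 36 had 0 counts, against 114 of 114 on the same strand. The counts of Mt2, Trf and Slc39a7 were for this reason not read as levels of these transcripts. In Ftl1, the ferritin light chain gene, 34.6% of positions were shared with Gm10252 or Gm22133. Among the tested genes named below, Slc30a7 (16.0%), Slc30a1 (8.92%), Slc11a2 (6.33%), Slc39a9 (4.52%), Slc39a13 (4.42%), Slc30a4 (2.37%), Cp (1.13%) and Heph (0.38%) shared smaller parts with a gene on the opposite strand.

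Of the 32 tested genes, Slc30a2 was higher and Cp, Slc11a1, Slc39a6 and Slc39a10 were lower in AZD1152 kidneys. That is 15.6% called, against 7.83% of all genes tested. Lower calls made up 12.5% of the 32, against 4.81% of all genes, and higher calls 3.12%, against 3.02%. The median log2 fold change of the 32 was 0.03, beside -0.00060 for all tested genes. The AZD1152 libraries were all below the vehicle libraries for 9 of the 32 genes (28.1%, against 11.6% of all genes) and all above them for 2 (6.25%, against 11.2%). Scaling by total counts, which moved the median of all genes to -0.15, gave 1 higher and 9 lower calls. When 1 library at a time was left out, 0 to 2 genes were called higher and 1 to 3 lower.

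**Figure D1:**
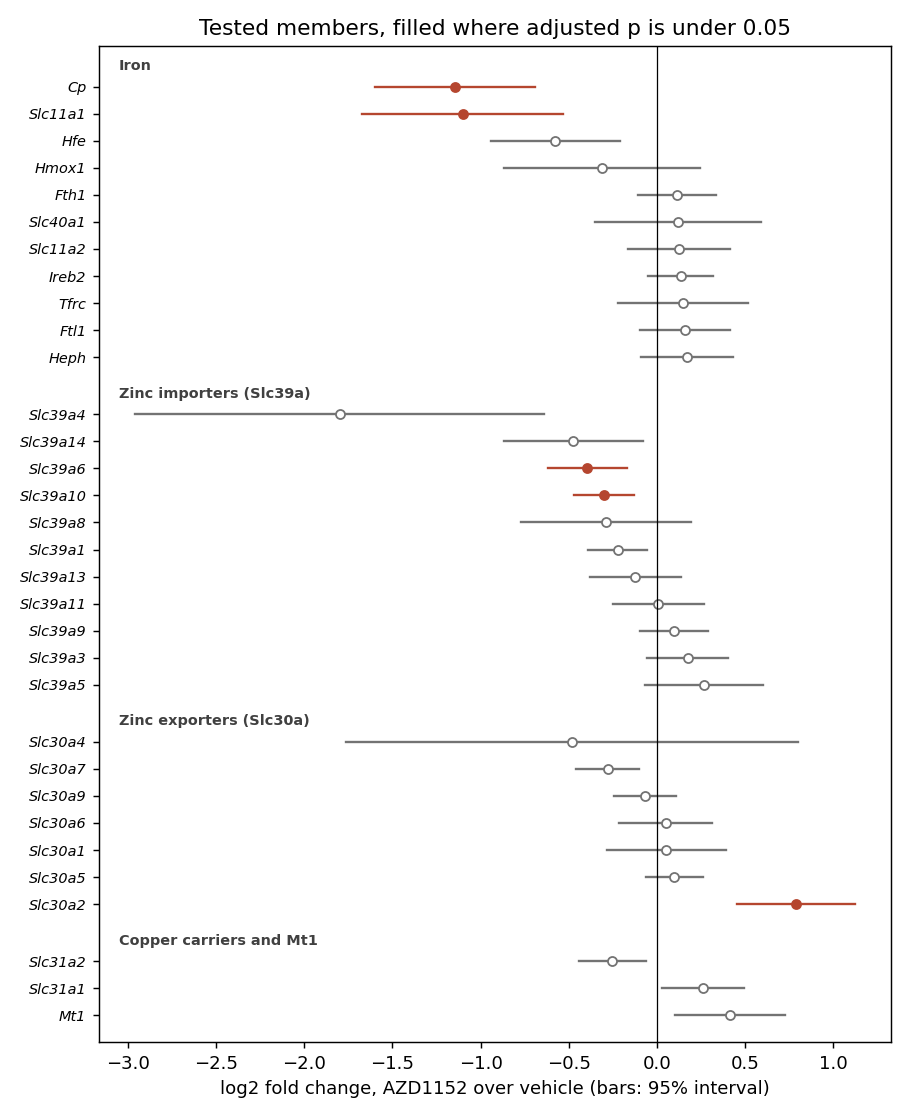
Log2 fold change of AZD1152 over vehicle for the 32 tested genes (x axis), grouped by role, with 95% intervals as bars. Filled points are the 5 called genes. Cp and Slc11a1 lie near -1.1, Slc30a2 lies at 0.79, and the intervals of Tfrc, Slc11a2, Slc40a1, Fth1, Ftl1, Hmox1, Ireb2 and Heph include 0.

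Cp and Slc11a1 fell to 0.453 and 0.466 of their vehicle level, the largest folds among the 5 called genes. Cp (ENSMUSG00000003617; GRCm38 chromosome 3, 19957054 to 20009145, plus strand) encodes ceruloplasmin, a secreted ferroxidase that carries copper. It had 91.5, 71.5, 109.8 and 87.7 CPM in AZD1152 kidneys, against 175, 152 and 270.4 CPM in vehicle kidneys. The groups did not overlap, and vehicle replicate 3 was the highest library. The log2 fold change was -1.14 ± 0.201 (SE; edgeR adjusted p = 0.0175), and without AZD1152 replicate 4 the adjusted p was 0.0502 at a log2 fold change of -1.14.

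Slc11a1 (ENSMUSG00000026177; chromosome 1, 74375195 to 74386062, plus strand) encodes NRAMP1, the carrier that moves divalent metals out of the phagosomes of macrophages. It had 12.8, 10.96, 21.4 and 22.5 CPM in AZD1152 kidneys, against 43.6, 30.2 and 35.0 CPM in vehicle kidneys. Every treated library was below every vehicle library, and AZD1152 replicates 1 and 2 were the lowest. The log2 fold change was -1.10 ± 0.252 (SE; edgeR adjusted p = 0.0352). AZD1152 replicates 1 and 2 also had the smallest sums of macrophage markers, 545 CPM each, and 9 of the 14 markers were called lower with a median of -1.02. The same libraries had the smallest sums of neutrophil markers, 11.7 and 15.5 CPM, of which 0 of 6 tested were called. The part of either marker set in the fall of Slc11a1 was not tested. Slc11a1 was no longer called without AZD1152 replicate 1 or 2 or vehicle replicate 1 or 3 (edgeR adjusted p = 0.0602, 0.0526, 0.108 and 0.107).

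**Figure D2:**
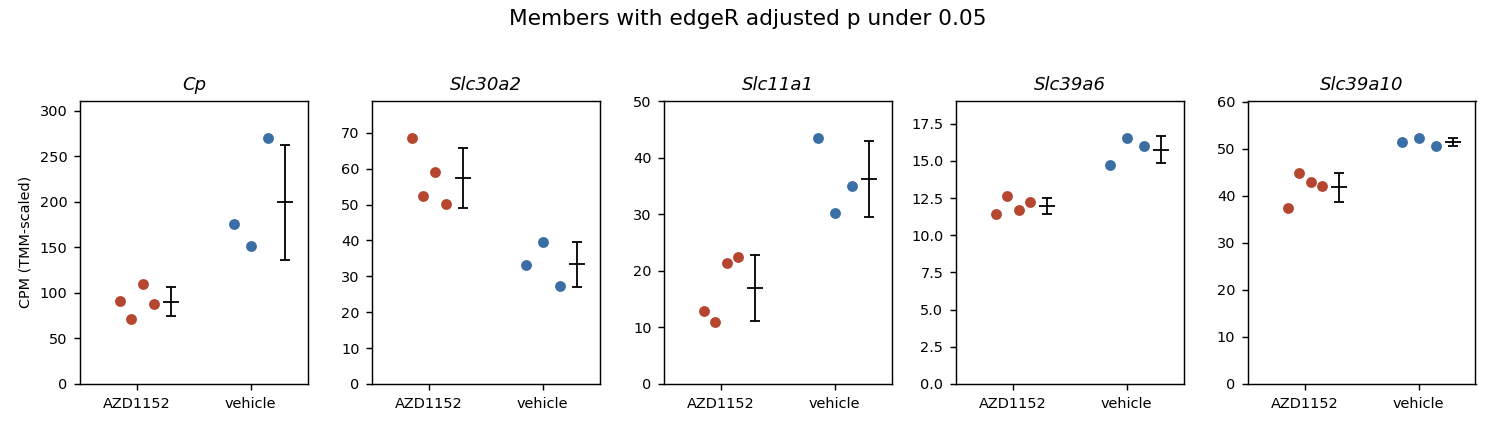
TMM-scaled CPM of the 5 called genes in each library (y axis from 0), AZD1152 (n = 4) left and vehicle (n = 3) right, with mean and SD beside the points. Slc30a2 is higher and the other 4 are lower in AZD1152 kidneys, with no overlap between the groups.

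Among the transcripts at the centre of cellular iron balance, none of Tfrc, Slc11a2, Slc40a1, Fth1, Ftl1, Hmox1 and Ireb2 was called. Their 95% intervals included 0 but were wide for some, and differences within these intervals are not excluded. Tfrc, the transferrin receptor, had 71.9, 83.4, 76.7 and 54.8 CPM in AZD1152 kidneys, against 66.8, 76.1 and 51.2 CPM in vehicle kidneys. The groups overlapped throughout, and the log2 fold change was 0.15 with a 95% interval of -0.22 to 0.52 (edgeR adjusted p = 0.628). Slc11a2 encodes DMT1, which carries iron out of endosomes. It had 112, 105, 123 and 94.5 CPM in AZD1152 kidneys and 80.4, 111 and 108 CPM in vehicle kidneys, with an interval of -0.16 to 0.41 (adjusted p = 0.60).

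Slc40a1, the iron exporter ferroportin, had 66.4, 127, 104 and 93.0 CPM in AZD1152 kidneys, against 83.0, 111 and 75.1 CPM in vehicle kidneys. AZD1152 replicate 1 was the lowest and AZD1152 replicate 2 the highest of the 7 libraries, so the treated mice spanned the whole range. The log2 fold change was 0.12 ± 0.209 (SE; edgeR adjusted p = 0.776), with an interval of -0.35 to 0.59. AZD1152 replicate 2 also had the largest sums of proximal tubule markers (20659 CPM) and of erythroid markers (1310.4 CPM, against 387 to 749.7 CPM in the other AZD1152 libraries and 345 to 645 CPM in vehicle libraries). The same library had the smallest sums of T cell (52.5 CPM), distal tubule (3956 CPM) and collecting duct markers (459 CPM). Without that library the log2 fold change of Slc40a1 was -0.04 (edgeR adjusted p = 0.923). Whether the cell content of that library had a part in its Slc40a1 value was not tested.

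Fth1, the ferritin heavy chain, was the most abundant of the 32 tested genes. It had 2879, 2982, 3099 and 3094 CPM in AZD1152 kidneys, against 2907, 2902 and 2551 CPM in vehicle kidneys. Vehicle replicate 3 was the lowest library and the others lay close together, and the log2 fold change was 0.11, with an interval of -0.11 to 0.33 (edgeR adjusted p = 0.525). Ftl1, the light chain, had 139, 170.5, 186 and 166 CPM in AZD1152 kidneys and 149, 164 and 133 CPM in vehicle kidneys (interval -0.10 to 0.41, adjusted p = 0.438). The ferritin genes also have processed copies in the mouse genome, and how reads shared with such copies were assigned was not examined. Hmox1 encodes haem oxygenase-1, which frees iron from haem. It had 33.7, 26.2, 39.8 and 35.1 CPM in AZD1152 kidneys, against 61.2, 36.8 and 27.7 CPM in vehicle kidneys. Vehicle replicate 1 stood above the other libraries. The log2 fold change of Hmox1 was -0.31 ± 0.245 (SE; edgeR adjusted p = 0.48), with an interval of -0.87 to 0.24. It was 0.07 without vehicle replicate 1 (edgeR adjusted p = 0.882).

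Fth1, Ftl1, Slc40a1 and Tfrc are textbook targets of the iron regulatory proteins, which bind a hairpin called the iron-responsive element in untranslated regions, repress translation from the leader and protect the Tfrc message from decay at its tail. Such a hairpin was searched as the loop CAGTGN with an unpaired C 5 bases before the loop and 5 bases on each side that pair, GT pairs included. It was found in an untranslated region of 155 of 21899 protein-coding genes (0.708%), among them these 4 genes and no other of the 41. Hairpins with an extra unpaired base or a broken pair were outside this search. It can therefore miss elements in other genes, Slc11a2 included, and further ones in these 4 genes. The 4 hairpins shown for Tfrc are the matches of this search. The hairpins of Fth1, Ftl1 and Tfrc are shown because the 3 genes carry the same element at opposite ends of the message and none of them was called. They are GENCODE release 21 sequences read on the transcript strand, with the unpaired C and the loop in capitals.
Fth1 leader (chromosome 19): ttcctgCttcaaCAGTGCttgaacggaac
Ftl1 leader (chromosome 7): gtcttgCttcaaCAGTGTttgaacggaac
Tfrc tail, first of 4 (chromosome 16): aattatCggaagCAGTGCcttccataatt
Tfrc tail, the second: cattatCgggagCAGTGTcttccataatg
Tfrc tail, the third: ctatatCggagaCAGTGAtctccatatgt
Tfrc tail, the fourth: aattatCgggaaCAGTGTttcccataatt
The unpaired C and the first 5 loop bases, CAGTG, are common to all 6 hairpins by the search, the last loop base was C, T or A, and the paired bases differ between the ferritin leaders and the Tfrc tail. RNA counts do not report translation, so any control through the ferritin leaders is outside these measurements.

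**Figure D3:**
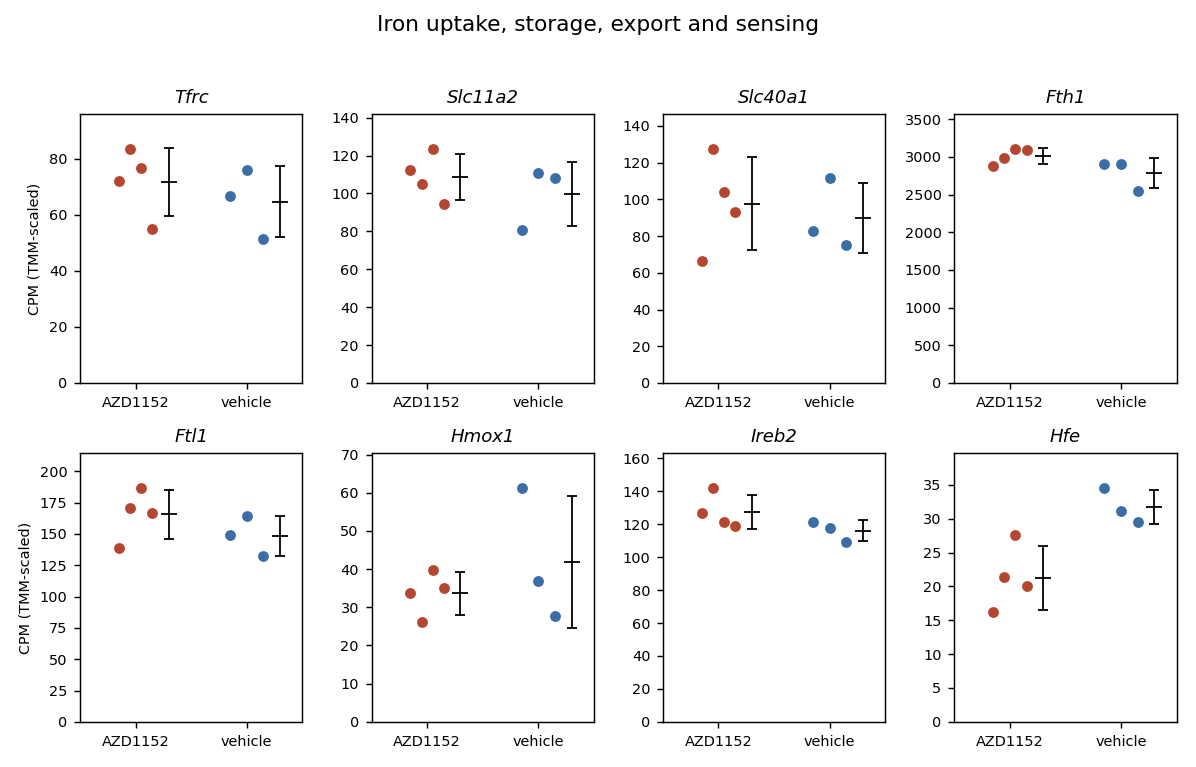
TMM-scaled CPM of 8 iron genes per library (y axis from 0), AZD1152 (n = 4) left and vehicle (n = 3) right, with mean and SD beside the points. The groups overlap for every gene except Hfe, whose AZD1152 libraries (16.2 to 27.5 CPM) lie below the vehicle libraries (29.5 to 34.5 CPM).

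The remaining iron genes were Ireb2, Heph and Hfe. Ireb2, which encodes iron regulatory protein 2, averaged 127 ± 10.2 CPM in AZD1152 kidneys (SD, n = 4) and 116 ± 6.33 CPM in vehicle kidneys (SD, n = 3), with edgeR adjusted p = 0.352. Heph, the membrane-bound relative of ceruloplasmin, averaged 22.3 ± 2.70 CPM in AZD1152 kidneys and 19.8 ± 0.682 CPM in vehicle kidneys (SD; edgeR adjusted p = 0.41). Its log2 fold change was 0.17, beside -1.14 for Cp. Hfe, an MHC class I-like protein that acts in iron sensing by the liver, had 16.2, 21.4, 27.5 and 20.1 CPM in AZD1152 kidneys, against 34.5, 31.1 and 29.5 CPM in vehicle kidneys. The groups did not overlap, yet Hfe missed the threshold, with a log2 fold change of -0.58 ± 0.162 (SE; edgeR adjusted p = 0.0641). DESeq2 and limma-voom called it (adjusted p = 0.0176 and 0.0467), and so did edgeR without AZD1152 replicate 3 (0.0266).

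Among the zinc importers, 2 of 11 tested were called, both lower (18.2%, against 4.81% of all genes), and 7 of the 11 estimates were below 0, as were 7901 of the 15774 over all genes (median of the 11 -0.22 on the log2 scale). The called pair were Slc39a10 and Slc39a6, close relatives that import zinc at the plasma membrane. Slc39a10 (ENSMUSG00000025986; chromosome 1, 46807544 to 46892852, minus strand) had 37.4, 44.8, 42.9 and 41.9 CPM in AZD1152 kidneys, against 51.4, 52.3 and 50.5 CPM in vehicle kidneys. The vehicle libraries lay close together, all above the treated ones. The log2 fold change was -0.30 ± 0.076 (SE; edgeR adjusted p = 0.0462). Slc39a6 (ENSMUSG00000024270; chromosome 18, 24579881 to 24603817, minus strand) had 11.4, 12.6, 11.7 and 12.3 CPM in AZD1152 kidneys, against 14.7, 16.6 and 16.0 CPM in vehicle kidneys. Its groups were also apart, with a log2 fold change of -0.39 ± 0.0993 (SE; edgeR adjusted p = 0.0458). Both calls sat close to the threshold. Leaving out any 1 library lost that of Slc39a6 (edgeR adjusted p = 0.0588 to 0.157), and leaving out any except AZD1152 replicate 2 lost that of Slc39a10 (0.0722 to 0.131).

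Slc39a14 and Slc39a8 carry iron and manganese as well as zinc. Slc39a14 had 64.2, 42.4, 42.5 and 58.6 CPM in AZD1152 kidneys, against 76.1, 57.7 and 82.6 CPM in vehicle kidneys. The groups overlapped through vehicle replicate 2, and Slc39a14 was not called (-0.47 ± 0.175 SE, edgeR adjusted p = 0.133). Slc39a8 varied among the treated mice, with 105, 51.5, 71.3 and 95.5 CPM in AZD1152 kidneys, against 93.3, 92.2 and 111 CPM in vehicle kidneys (edgeR adjusted p = 0.451). Slc39a1, a widely expressed importer, averaged 86.8 ± 4.10 CPM in AZD1152 kidneys and 101 ± 7.60 CPM in vehicle kidneys (SD). Its groups were apart but its log2 fold change of -0.22 ± 0.0735 (SE) was not called (edgeR adjusted p = 0.0989). Slc39a4, mutated in the human zinc deficiency acrodermatitis enteropathica, was near the detection limit with 92 counts in all. It had 0.142 to 0.531 CPM in AZD1152 kidneys and 0.555 to 1.83 CPM in vehicle kidneys, an uncalled log2 fold change of -1.80 ± 0.513 (SE; edgeR adjusted p = 0.0663) that DESeq2 called (0.0357). Slc39a5, a basolateral importer of epithelia, averaged 93.6 ± 8.21 CPM in AZD1152 kidneys and 77.8 ± 19.4 CPM in vehicle kidneys (SD; edgeR adjusted p = 0.308), and was called higher without vehicle replicate 2 (log2 fold change 0.49, adjusted p = 0.0309). The others, Slc39a3, Slc39a9, Slc39a11 and Slc39a13, had log2 fold changes of -0.12 to 0.17 and edgeR adjusted p of 0.329 to 0.976.

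Slc30a2 was the only one of the 32 tested genes called higher in AZD1152 kidneys. It encodes ZnT2, which loads zinc into vesicles and is best known from the lactating mammary gland and the pancreas. Slc30a2 (ENSMUSG00000028836; chromosome 4, 134343181 to 134354484, plus strand) had 68.7, 52.3, 59.0 and 50.2 CPM in AZD1152 kidneys, against 33.1, 39.7 and 27.3 CPM in vehicle kidneys. The groups did not overlap, AZD1152 replicate 1 was the highest and vehicle replicate 3 the lowest. The log2 fold change was 0.79 ± 0.147 (SE; edgeR adjusted p = 0.0203), 1.73-fold. Proximal tubule markers were higher in the same kidneys, 6 of 12 of them called (median 0.54 on the log2 scale). They summed to 17394, 20659, 16660 and 16852 CPM in AZD1152 kidneys, and to 12923, 13794 and 10348 CPM in vehicle kidneys. The largest sum, in AZD1152 replicate 2, went with 52.3 CPM of Slc30a2, while in vehicle kidneys both were ordered alike. Of collecting duct markers 2 of 7 and of distal tubule markers 1 of 7 were called higher. The part of these markers in the rise of Slc30a2 was not tested. Without vehicle replicate 1 or 3 Slc30a2 missed the threshold (edgeR adjusted p = 0.0638 and 0.0742).

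The other 6 tested exporters were not called. Slc30a1, the zinc exporter of the plasma membrane, had 5.44, 5.31, 5.36 and 4.68 CPM in AZD1152 kidneys, against 5.18, 4.97 and 4.89 CPM in vehicle kidneys. These levels were nearly flat over the 7 mice, with a log2 fold change of 0.05 and an interval of -0.28 to 0.39 (edgeR adjusted p = 0.863). Slc30a7, which supplies zinc to the secretory pathway, averaged 32.7 ± 1.94 CPM in AZD1152 kidneys and 39.7 ± 1.60 CPM in vehicle kidneys (SD), with groups apart and a log2 fold change of -0.28 ± 0.0791 (SE; edgeR adjusted p = 0.0649). Slc30a7 was called lower with upper-quartile factors, a stricter filter on low counts and total counts (edgeR adjusted p = 0.0495, 0.048 and 0.0163). Its partners in that pathway, Slc30a5 and Slc30a6, had log2 fold changes of 0.10 and 0.05 (edgeR adjusted p = 0.441 and 0.836). Slc30a9 and Slc30a4 had -0.07 ± 0.0778 and -0.48 ± 0.566 (SE), and Slc30a4 ranged from 0.567 to 3.87 CPM within the AZD1152 group.

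Copper is taken up by Slc31a1 (CTR1), and Slc31a2 (CTR2) is its close relative and chromosomal neighbour. Slc31a1 had 226, 262, 242 and 239.7 CPM in AZD1152 kidneys, against 211, 224 and 172 CPM in vehicle kidneys. Slc31a2 had 26.4, 27.4, 29.5 and 29.3 CPM in AZD1152 kidneys, against 31.7, 33.8 and 35.1 CPM in vehicle kidneys. In AZD1152 kidneys Slc31a1 lay wholly above and Slc31a2 wholly below the vehicle range, but neither was called. Their log2 fold changes were 0.26 ± 0.103 and -0.25 ± 0.083 (SE; edgeR adjusted p = 0.158 and 0.0979). The difference between these neighbours was not tested. With total counts, edgeR called Slc31a2 lower (adjusted p = 0.0321), and likewise Slc39a1 (0.0291).

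Mt1, a metallothionein whose transcription follows zinc supply, had 155, 108, 121 and 140.4 CPM in AZD1152 kidneys, against 104, 83.5 and 108 CPM in vehicle kidneys. The treated libraries were mostly higher, and AZD1152 replicate 2 and vehicle replicate 3 met at 108 CPM. Mt1 was not called in edgeR (0.41 ± 0.139 SE, adjusted p = 0.102), while DESeq2 called it at nearly the same fold change (0.42, adjusted p = 0.0436).

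**Figure D4:**
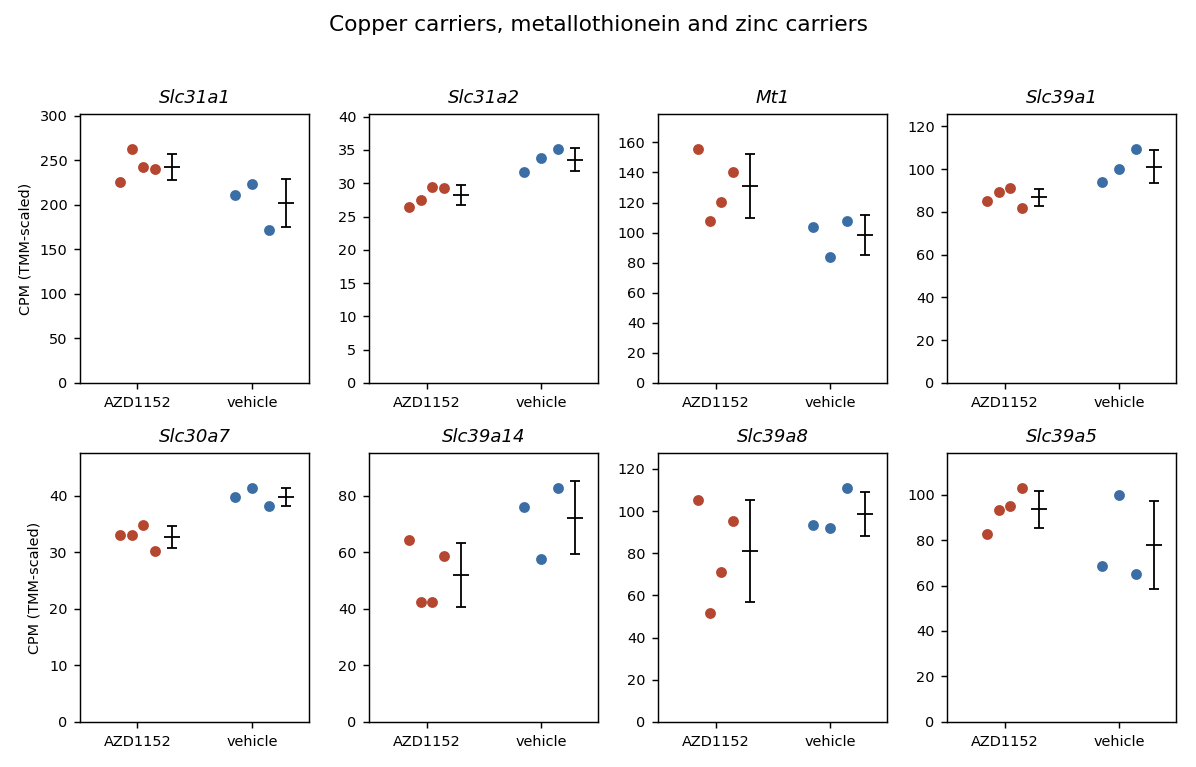
TMM-scaled CPM of Slc31a1, Slc31a2, Mt1 and 5 zinc carriers per library (y axis from 0), AZD1152 (n = 4) left and vehicle (n = 3) right, with mean and SD beside the points. The groups are apart for Slc31a1, Slc31a2, Slc39a1 and Slc30a7 and overlap for the other 4.

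Mt1 and Slc30a1 are classic targets of the zinc-sensing factor MTF-1, which binds the metal response element. The element was searched as TGCACNC or TGCGCNC, on both strands, in the 250 bases before each RefSeq start (GRCm38.p6). It was in 21.4% of 32851 windows. Of the 41 genes, 31 had a window and 14 of these held it (45.2%): Mt1, Mt2, Slc30a1, Slc30a2, Slc30a3, Slc30a4, Slc30a5, Slc30a10, Slc31a2, Slc39a3, Slc39a5, Slc39a8, Slc39a11 and Tfrc. Of the called genes, Slc30a2 held it and Cp, Slc11a1 and Slc39a10 did not, but the RefSeq window of Slc30a2 lies within the gene as GENCODE draws it. Slc39a6 had no window. In Slc30a10 and Tfrc a match on one strand overlapped a match on the other. A gene was counted when any of its windows matched, and 8 of the 31 genes had more than 1 window. The share of genes is therefore not on the same footing as the share of windows. The antioxidant response element was searched as TGAC and, 3 bases on, GC, on both strands. It was in 10.2% of all windows and, with any window of a gene counted, in 8 of the 31 genes. The 100 bases before the first annotated start of Mt1 and of Slc30a1 are shown, since the levels of both genes are given above. Whether MTF-1 acts in these bases was not examined. Bases after the RefSeq starts were not searched, so further elements may lie there. The matched bases are in capitals and both run along the plus strand.
Mt1, chr8:94178982-94179081: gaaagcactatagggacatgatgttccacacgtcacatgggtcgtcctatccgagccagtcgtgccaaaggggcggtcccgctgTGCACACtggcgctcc
Slc30a1, chr1:191906667-191906766: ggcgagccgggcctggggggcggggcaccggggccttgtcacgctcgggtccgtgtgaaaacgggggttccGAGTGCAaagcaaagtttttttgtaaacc
Each of these windows held 1 match, on the plus strand for Mt1 and on the minus strand for Slc30a1. A match is a description of letters and not a site shown to be bound.

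A further 74 genes came from 6 lists, and 65 of them were tested. The lists were broad, and not all of their genes handle metals. In AZD1152 kidneys 7 were called higher and 4 lower (16.9%, against 7.83% of all genes). That is 10.8% higher and 6.15% lower, against 3.02% and 4.81% of all genes. Scaling by total counts gave 2 higher and 7 lower. In the list of iron control 1 of 10 tested genes was called, higher (10%, against 7.83% of all genes called), and the median log2 fold change was 0.17. The called gene was Bmp6, the signal by which liver endothelium induces hepcidin. Bmp6 had 116, 116, 117 and 94.3 CPM in AZD1152 kidneys, against 74.4, 82.2 and 68.1 CPM in vehicle kidneys. All treated libraries were above the vehicle libraries, and the log2 fold change was 0.56 ± 0.0994 (SE; edgeR adjusted p = 0.0175). Some of its exonic positions overlap Txndc5 on the opposite strand, and Bmp6 was not called without vehicle replicate 1 or 3 (0.0566 and 0.0716). The 9 listed genes that did not pass the filter were the hepcidin genes Hamp and Hamp2, and Hjv, Tfr2, Ftmt, Hpx, Sco2, Mt3 and Mt4.

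In the list of iron reductases and other iron carriers 1 of 12 tested genes was called higher and 1 lower (median 0.03). That is 16.7% called, against 7.83% of all genes. Slc22a17, described as a receptor for lipocalin-2, averaged 45.1 ± 4.10 CPM in AZD1152 kidneys and 32.2 ± 2.19 CPM in vehicle kidneys (SD), a rise of 0.48 ± 0.0935 (SE; edgeR adjusted p = 0.022). Lcn2 encodes lipocalin-2 itself, which binds iron-loaded siderophores and is a marker of tubular injury. Lcn2 had 6.78, 3.06, 15.6 and 6.94 CPM in AZD1152 kidneys, against 38.7, 15.4 and 75.6 CPM in vehicle kidneys. The spread was wide and AZD1152 replicate 3 touched vehicle replicate 2. On the log2 scale Lcn2 fell by 2.41 ± 0.575 (SE; edgeR adjusted p = 0.0392), and was not called without AZD1152 replicate 1, 2 or 4 or vehicle replicate 1 or 3 (adjusted p up to 0.16). Slc22a17 was not called without AZD1152 replicate 4 or vehicle replicate 1 or 3 (0.0621 to 0.0719). Neutrophils also make lipocalin-2 and haptoglobin, and the 8 neutrophil markers summed to 11.7 to 29.8 CPM in AZD1152 kidneys and 27.3 to 33.0 CPM in vehicle kidneys. Their part in these values was not tested.

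Of the 17 tested genes of haem and haemoglobin handling, 2 were called higher and 1 lower (17.6%, against 7.83% of all genes, median 0.16). Hp, which encodes the haemoglobin scavenger haptoglobin, had 2.90, 3.98, 4.21 and 3.12 CPM in AZD1152 kidneys, against 24.2, 5.60 and 8.77 CPM in vehicle kidneys. The groups were apart, with vehicle replicate 1 far above the rest, and on the log2 scale Hp fell by 1.85 ± 0.444 (SE; edgeR adjusted p = 0.0401). Without vehicle replicate 1 the log2 fold change of Hp was -1.01 (adjusted p = 0.0754), and the call held only without vehicle replicate 2. Flvcr2, a haem and choline carrier, averaged 50.2 ± 4.58 CPM in AZD1152 kidneys and 38.4 ± 0.544 CPM in vehicle kidneys (SD; log2 fold change 0.39, edgeR adjusted p = 0.0304). Blvra, biliverdin reductase A, averaged 76.3 ± 7.53 CPM in AZD1152 kidneys and 59.0 ± 4.45 CPM in vehicle kidneys (SD; log2 fold change 0.37, edgeR adjusted p = 0.0438). Blvra lost its call without any 1 of the 7 libraries (0.0608 to 0.168) and Flvcr2 without 5 of them (up to 0.111).

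In the copper list 2 of 10 tested genes were called, both higher (20%, against 7.83% of all genes called, median 0.18). Sod1, the copper and zinc superoxide dismutase, had 244, 253, 257 and 249.6 CPM in AZD1152 kidneys, against 206, 202 and 194 CPM in vehicle kidneys. The groups were well apart for a modest log2 fold change of 0.32 ± 0.0671 (SE; edgeR adjusted p = 0.0263). Slc25a3, the mitochondrial carrier of phosphate and copper, averaged 1009.6 ± 57.3 CPM in AZD1152 kidneys and 785 ± 62.2 CPM in vehicle kidneys (SD; log2 fold change 0.36, edgeR adjusted p = 0.0489). Sod1 was not called in 5 of the 7 fits that left out a library (highest adjusted p by edgeR 0.0882), and Slc25a3 was called in none of the 7 (highest 0.141).

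In the list headed zinc and metal regulated 1 of 5 tested genes was called higher and 1 lower (40%, against 7.83% of all genes). Neither of them is a metal carrier. The first was the phosphate carrier Slc34a1, which is also 1 of the 12 proximal tubule markers, at 0.67 ± 0.151 (SE; edgeR adjusted p = 0.033). The other was Zfp36, a zinc-finger protein that speeds the decay of inflammatory messages, with a log2 fold change of -0.64 ± 0.137 (SE; edgeR adjusted p = 0.0279). Slc34a1 averaged 4961 ± 329.8 CPM in AZD1152 kidneys and 3108 ± 638 CPM in vehicle kidneys, and Zfp36 48.2 ± 9.08 CPM in AZD1152 kidneys and 75.2 ± 6.001 CPM in vehicle kidneys (SD). Of 11 tested genes in the list for the antioxidant factor NRF2, 1 was called, lower (9.09%, against 7.83% of all genes called), and the median was -0.02. Besides NRF2 targets that list held Nfe2l2, which encodes NRF2 itself, and Bach1. The called gene was G6pdx, which supplies NADPH (-0.39 ± 0.0786 SE, edgeR adjusted p = 0.0244). G6pdx averaged 31.8 ± 1.01 CPM in AZD1152 kidneys and 41.6 ± 2.95 CPM in vehicle kidneys (SD). Slc34a1, Zfp36 and G6pdx lost their calls in 5, 4 and 3 of the 7 fits that left out a library (highest adjusted p by edgeR 0.0923, 0.112 and 0.0819).

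Levels were compared between genes as CPM per kilobase of exon. The length was that of all annotated exons of a gene together. It can exceed the length of single transcripts, so the order of genes can depend on this choice. Fth1 was far above the rest, with 869 ± 30.2 in AZD1152 kidneys (SD, n = 4) and 803 ± 58.9 in vehicle kidneys (SD, n = 3). Ftl1 (124 ± 14.7 in AZD1152 kidneys, 111 ± 11.8 in vehicle kidneys) and Mt1 (105 ± 16.96 in AZD1152 kidneys, 79.0 ± 10.5 in vehicle kidneys) came next, and in AZD1152 kidneys these neighbours did not differ beyond their spread. They were followed by Slc31a1 (56.6 ± 3.51 in AZD1152 kidneys, 47.3 ± 6.31 in vehicle kidneys), Slc39a1 (36.7 ± 1.73 in AZD1152 kidneys, 42.8 ± 3.21 in vehicle kidneys) and Slc39a5 (42.0 ± 3.69 in AZD1152 kidneys, 35.0 ± 8.70 in vehicle kidneys). For Ftl1, reads on the 34.6% of positions shared with other genes may be missing, so its level may be too low. On this scale Slc30a2, at 16.1 ± 2.34 in AZD1152 kidneys and 9.36 ± 1.74 in vehicle kidneys, stood beside Slc30a9 (15.7 ± 0.813 in AZD1152 kidneys, 16.5 ± 1.09 in vehicle kidneys) as the highest Slc30a carrier in the treated kidneys. The exon lengths used were 3564 bases for Slc30a2 and 12374 for Slc30a9, against 2023 and 5648 in the transcripts Slc30a2-201 and Slc30a9-201. In CPM alone Slc30a9 was above Slc30a2 in AZD1152 kidneys (means of 194.8 and 57.5). In vehicle kidneys Slc30a2 lay below Slc30a9 and Slc30a5 (11.6 ± 1.01). Cp was at 9.42 ± 1.64 in AZD1152 kidneys and 20.8 ± 6.55 in vehicle kidneys, and the other ferroxidase Heph at 2.92 ± 0.353 in AZD1152 kidneys and 2.59 ± 0.0890 in vehicle kidneys. The lowest tested genes, Slc30a1, Slc30a4 and Slc39a4, were all below 1 in both groups.

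**Figure D5:**
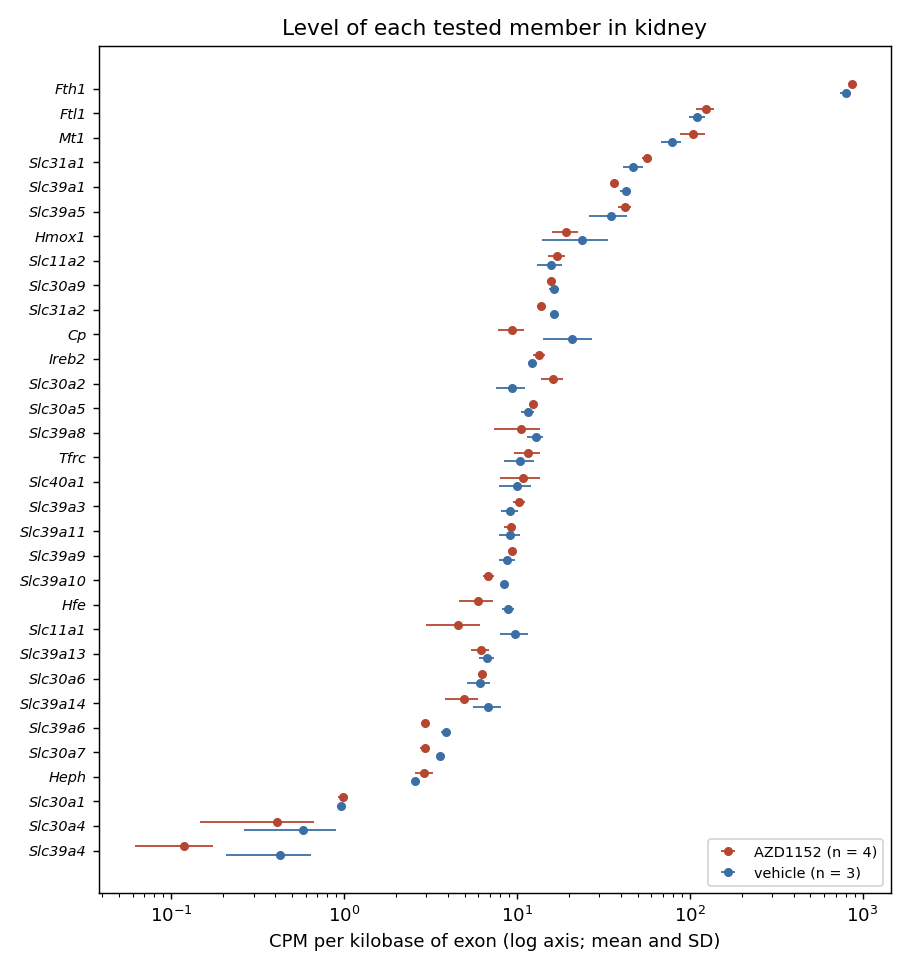
Mean CPM per kilobase of exon with SD (log x axis) of the 32 tested genes, ordered by their mean over both groups, AZD1152 (n = 4) above vehicle (n = 3) in each row. Fth1 is at 869 in AZD1152 and 803 in vehicle kidneys, and the paired points separate most for Cp, Slc11a1, Slc30a2 and the scarce Slc39a4.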

How the data were processed

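Kidney RNA of 7 mice was measured as read counts per gene. The authors deposited whole-number counts that had not been normalized. Per the submitters' processing notes, CASAVA, HISAT2 2.0.5, DESeq2 and DESeq were used with GRCm38. Which counter and annotation release were used, and whether reads were counted by strand, is not given in the sources used here. Genes whose exonic positions were all shared mostly had 0 counts, so reads on shared positions may be missing from the counts. The gene lists and the members were chosen with earlier results of these data known. Of 53465 gene IDs, 53360 had a name in GENCODE mouse release 21, which gave coordinates, exon lengths and overlaps. Counts were filtered with filterByExpr, scaled by TMM and tested two-sided on group alone with edgeR 4.0.16 (R 4.3.3), with Benjamini-Hochberg adjustment over 15774 genes. SE was derived from the log2 fold change and its F statistic. The steps were tested on simulated counts. A count of 0 allows up to 3 counts, 0.167 to 0.213 CPM, for counting error only, because amplified reads carried no molecular identifiers. No 2 libraries agreed within sampling noise (over 21 pairs, chi-square divided by its degrees of freedom was at least 10.4). Values are given in every library for called genes and for Tfrc, Slc40a1, Slc11a2, Fth1, Ftl1, Hmox1, Mt1, Mt2, Slc30a1 and Slc39a14. Called genes of the pathway lists (at most 4 a list) were named. Alternatives were RLE and upper-quartile factors, total counts, TMM computed leaving out the mitochondrial genes and the 50 of highest abundance, no filter, a strict filter (CPM of 1 in 3 libraries and mean of 2), DESeq2 1.42.0, limma-voom 3.58.1, each library left out, and a replicate block.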

Additional observations from a re-analysis of the deposited data

How the results depend on the processing

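None of the 5 called genes changed sign under any of the 16 alternatives. With total counts, the calls were 232 higher and 1482 lower over all genes, 9 lower among the 41 genes and 2 higher and 7 lower among the pathway genes, and the median of the 32 tested members was -0.12. DESeq2 gave 943 higher and 1139 lower over all genes, 2 higher among the 41 genes, and 12 higher and 7 lower among the pathway genes, where limma-voom gave 2 lower. Among the 32 tested members DESeq2 lost no call and gained Mt1 as higher and Hfe and Slc39a4 as lower. The replicate block over replicates 1 to 3 gave 64 higher and 148 lower over all genes, 0 and 1 (Cp) among the 41 genes, and 1 and 2 among the pathway genes. The replicate numbers share no label of litter or day. Same-numbered libraries correlated at -0.29, 0.21 and -0.12 in their deviations. Only for replicate 2 was this above the range for libraries of other numbers (-0.23 to 0.0071). These few values cannot decide whether the numbers pair the mice. Leaving out each library gave 60 to 475 higher and 163 to 619 lower over all genes, 0 to 2 and 1 to 3 among the 41 genes, 0 to 6 and 0 to 4 among the pathway genes, and a median of -0.038 to 0.067.

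Signs of uncalled genes turned with total counts, which moved all genes by -0.15: Fth1 -0.035, Ireb2 -0.016, Slc11a2 -0.028, Slc30a1 -0.10, Slc30a5 -0.050, Slc30a6 -0.10, Slc39a9 -0.054, Slc40a1 -0.032 and Slc39a11 -0.14. Slc39a11 was also at -0.0060 with upper-quartile factors, -0.0044 with the strict filter and -0.027 with the block. With 1 library left out, Hmox1 ranged from -0.54 to 0.065, Slc11a2 from -0.0058 to 0.21, Slc30a6 from -0.063 to 0.16, Slc39a11 from -0.05 to 0.13 and Slc40a1 from -0.043 to 0.31. The cause was not tested. Counts were lowest for Slc39a4 and Slc30a4, with 92 and 310 in all, and the 64, 44, 26 and 8 counts of Slc30a4 in AZD1152 libraries differed widely. The strict filter left no value for Slc39a4.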
